A study of Mus musculus with 10 samples.

Results

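The genes described here are 47 genes of DNA replication and cell division. They were chosen by name, as the rows of the protein-coding FPKM table whose gene symbol is on a fixed list, and all 47 were found among its 16936 genes. FPKM is the number of sequenced fragments per kilobase of gene, scaled to the reads of the sample. The 22 S-phase genes run from the MCM helicase to the flap nuclease Fen1, and the 25 mitotic genes run from Top2a to the CDK-binding protein Cks2. Measured were 10 total RNA samples of cultured mouse macrophages, grown from bone marrow over 7 days in the cytokine GM-CSF at 50 ng/mL. The 5 untreated samples are compared with 5 samples given PLG for 24 h, which the design text spells out as human plasminogen, the precursor of the protease plasmin. Both groups share the GM-CSF culture, and neither the strain, the age of the animals nor a control preparation for the added protein is given in the sources used here. Whether the replicates are separate mice, separate cultures or repeats of 1 culture is not labelled. The p-values accordingly reflect no more than the scatter among these 10 samples, which may be technical.

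A cell that prepares to divide loads the ring-shaped MCM helicase onto its origins of replication, and later switches it on and copies its DNA with polymerases held in place by the clamp PCNA. After replication, cyclin-bound CDK1 drives the cell into mitosis, where kinetochores, the spindle and the anaphase-promoting complex separate the chromosomes. Genes of the first phase are classically tied to E2F factors, and genes of the second to the MuvB complexes that bind a short element called CHR. Marrow precursors divide in response to colony-stimulating factors, while mature macrophages generally divide less. Transcripts of these genes are commonly used to mark dividing cells, and how many cells divided in these cultures is not given in the sources used here. In bulk RNA, fewer dividing cells and less RNA per cell cannot be told apart.

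Whole reads could be recovered from the steps of the deposited values, and they came to 28426106 to 64214547 reads on the listed genes per sample. Across all genes the samples of 1 group correlated at 0.976 to 0.995 and samples of different groups at 0.847 to 0.868, as descriptions over log2(FPKM + 1). A set of 3 repeat-like gene models took 0.130% to 5.92% of the reads of a sample, with high and low samples in both groups. Leaving out the 3 samples lowest in these models was tried for 39 of the 47 genes, those past the filter on low values given below. It changed the call of 1 of them, Cks2, which is described with its values further on. The macrophage receptor gene Csf1r was at 245 ± 6.91 FPKM in untreated and 214 ± 12.8 FPKM in PLG samples (mean ± SD, 5 samples each). By the test given below, 6 of the 9 macrophage markers were lower with PLG, and 5 of 7 tested dendritic cell markers were higher. Over all tested genes 31.3% fell and 29.1% rose. In each of these marker lists 1 gene passed the filter only through its PLG level, and sums are given at the end.

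The division genes were lower with PLG almost throughout. The mean was lower in 44 of the 47 genes, and the median gene stood at 32.7% of its untreated level. In 37 genes every PLG sample lay below every untreated sample, in 2 genes every PLG sample lay above, and in 8 the groups overlapped. Among all 16936 genes of the table, 16.1% had non-overlapping groups in the lower direction and 15.8% in the higher direction. The 3 genes with a higher mean were Mki67, Tyms and Cks2.

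Changes were tested with limma on log2(FPKM + 1) in genes at or above 1 FPKM in 5 or more samples, with Benjamini-Hochberg adjustment over 9997 genes and a threshold of 0.05. Of the 47 genes 39 passed this filter, and of these 34 fell, 3 rose and 2 did not pass the test. Over all tested genes 31.3% fell and 29.1% rose. In 15 of the 39 genes no PLG sample reached 1 FPKM, so these were tested only because of their untreated level and had to differ. They were Cdc45, Pola1, Chaf1a, Ccna2, Ccnb1, Bub1, Aurka, Aurkb, Plk1, Cenpe, Birc5, Ube2c, Prc1, Anln and Ect2. Tyms was the reverse case, with no untreated sample at 1 FPKM. The counts are therefore a description of the tested genes. The 8 genes under the filter were Cdc6, Gins2, Pole, Prim1, Fen1, Cenpf, Ndc80 and Nuf2. A fit without the filter covered all 47 genes and gave 39 lower, 2 higher and 6 that did not pass, where 20.0% of all 16936 genes were lower and 19.8% higher. Where the groups of a gene do not overlap, the exact two-sided permutation test over all assignments of 5 and 5 samples gives p = 0.00794, the smallest it can give.

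**Figure D1:**
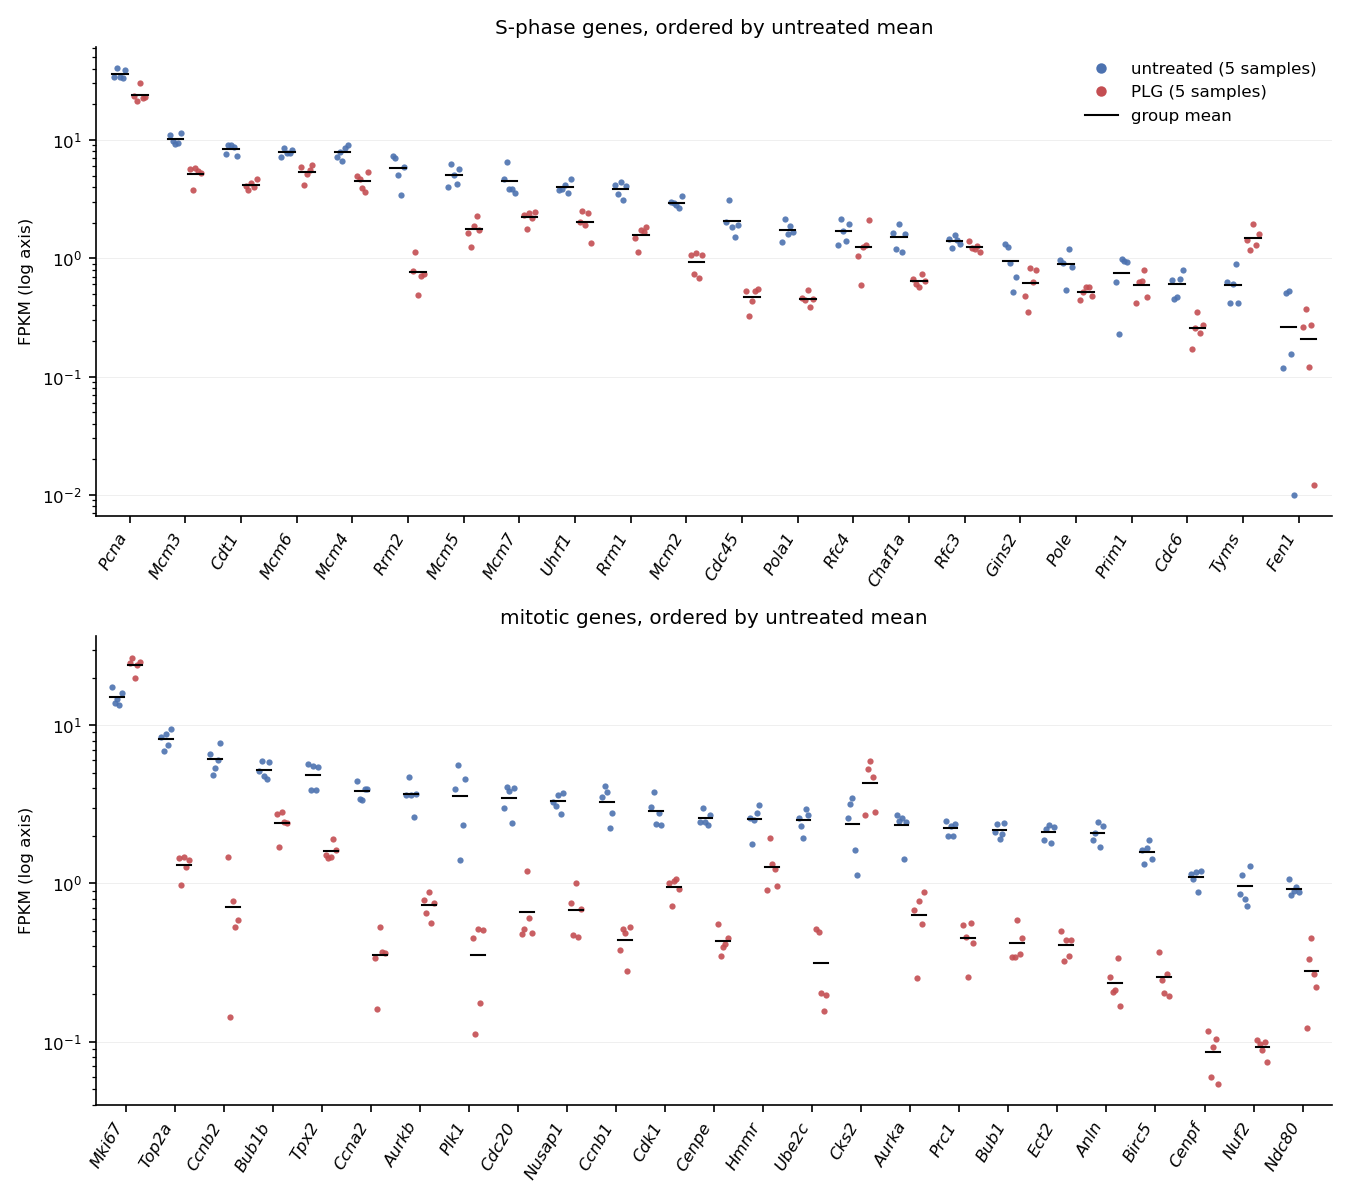
FPKM (log axis) of the 22 S-phase genes and the 25 mitotic genes in each of the 5 untreated (blue) and 5 PLG (red) samples, ordered by the untreated mean, with black lines at the group means. Mki67 and Tyms are the genes whose PLG samples all lie above the untreated ones, and the mitotic genes apart from Mki67, Cks2 and Hmmr have PLG samples below every untreated sample.

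The median S-phase gene stood at 50.9% of its untreated level and the median mitotic gene at 19.3%. In log2(FPKM + 1) units, which shrink the changes of weakly expressed genes, the median change of the 17 tested S-phase genes was -0.74 and that of the 22 tested mitotic genes -1.24, against -0.02 over all tested genes. On the scale of the recovered reads, fitted with voom, the medians over all 22 and all 25 genes were -0.96 and -2.40. The S-phase list gave 14 lower, 1 higher and 2 not passed, and the mitotic list 20 lower and 2 higher. Over all tested genes 31.3% fell and 29.1% rose. In 3 of the 17 tested S-phase and 12 of the 22 tested mitotic genes no PLG sample reached 1 FPKM. All of these were called lower and had to differ, so the counts of the lists are not alike. The difference between the lists was not tested.

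**Figure D2:**
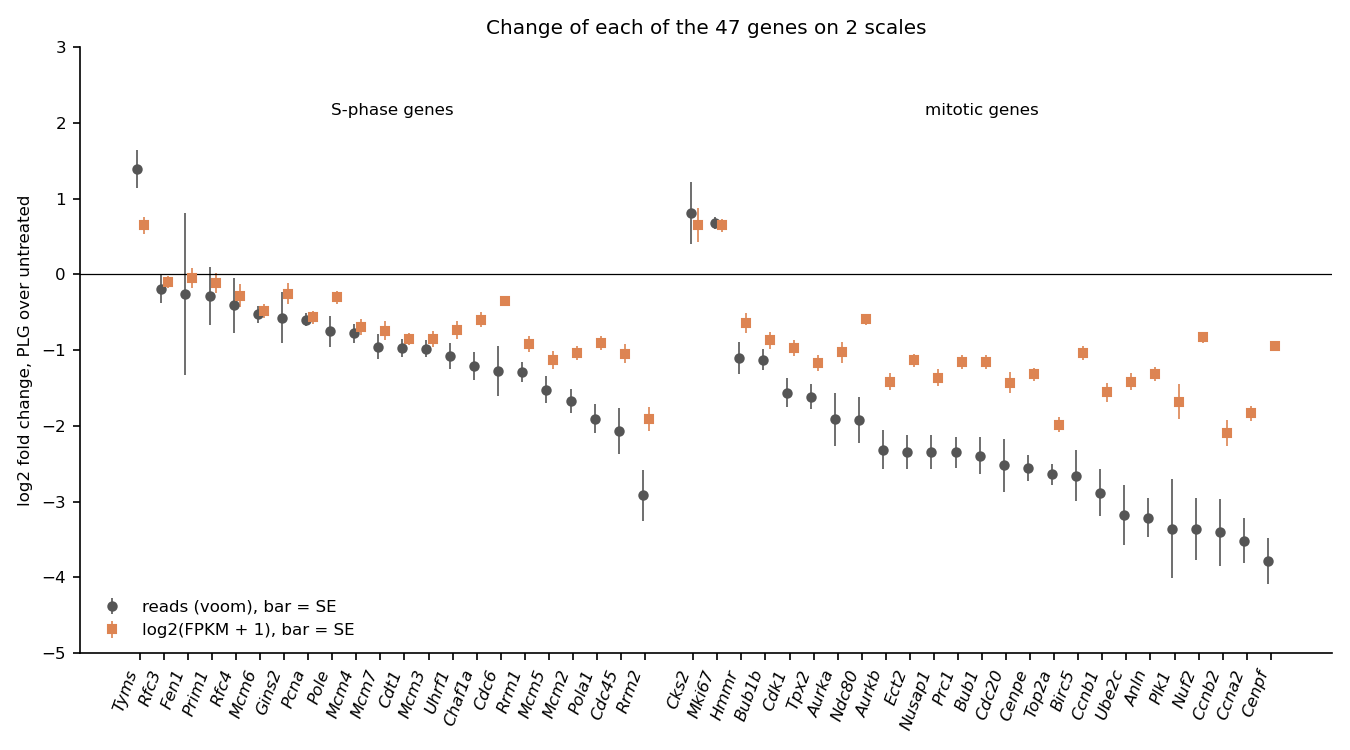
Log2 fold change of PLG over untreated for each of the 47 genes, on the recovered reads (grey circles, voom) and on log2(FPKM + 1) (orange squares), with bars of 1 SE. The scales give each gene the same sign, and they part most for genes of low level such as Cenpf, at -3.78 on the reads and -0.94 on log2(FPKM + 1).

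As a description of the lists, the promoters of the genes were searched for the elements tied to each phase. Promoters of 300 bases, 250 before and 50 after the start, were taken from RefSeq (GRCm38.p6) for the 41 of 47 genes that had an entry, and 13223 genes of the table had one. A gene with several entries counts as holding a motif if any entry does. The nearest entry started within 50 bases of a GENCODE M21 transcript start in 39 of the 41, and Mcm5 and Pcna were the exceptions at 60 and 134 bases. The genes without one were Mcm4, Gins2, Pole, Ccna2, Aurkb and Tpx2. Searched on both strands were the E2F letters TTTCCCGC, TTTGGCGC and TTTCGCGC, the CHR letters TTTGAA and the CCAAT box CCAAT. The E2F letters can overlap each other on opposite strands, and no other pair overlapped in the promoters printed here. A match describes the letters of the window and is not a binding site.

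An E2F match was present in 9 of 19 S-phase promoters (47.4%) and in 1 of 22 mitotic promoters (4.5%), that of Cdk1, against 3.4% of all promoters. A CHR match was present in 15 of 22 mitotic promoters (68.2%) and in 3 of 19 S-phase promoters (15.8%), against 16.0% of all. The CCAAT box stood in 77.3% of the mitotic and 73.7% of the S-phase promoters, against 42.4% of all. CHR and CCAAT occurred together in 13 mitotic and 2 S-phase promoters, and in 7.7% of all promoters. Among the 2522 tested genes that fell with PLG and had an entry, the shares were 4.0% for E2F, 15.7% for CHR and 44.1% for CCAAT, near those of all genes. The members were listed by function, and E2F and CHR elements were described in the promoters of such genes, so these shares are a description of the lists. In the 250 bases before the start alone, the CHR share was 36.4% of the mitotic and 14.5% of all promoters (8 of 22 and 1922 of 13223), since several CHR matches lie just after the start, and the E2F share was 36.8% of the S-phase and 2.9% of all promoters.

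**Figure D3:**
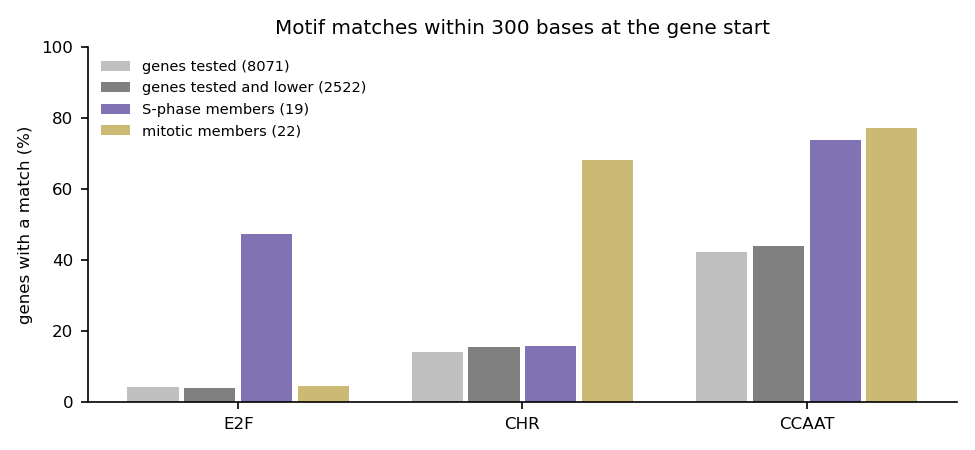
Share of genes (%) with at least 1 match of the E2F, CHR or CCAAT letters in the 300 bases at the start, for all tested genes (light grey), tested genes that were lower with PLG (dark grey), S-phase genes (purple) and mitotic genes (yellow). The E2F bar of the S-phase genes reaches 47.4% and the CHR bar of the mitotic genes 68.2%, and the bars of the lower genes lie at 4.0% and 15.7%. Without the 50 bases after the start the CHR bar of the mitotic genes would be at 36.4%.

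Shown are the promoters of Rrm2, Mcm5 and Ccnb2, which had the largest falls on log2(FPKM + 1) among the S-phase genes, the S-phase genes with an E2F match and the tested mitotic genes, and of the 3 genes that rose. Each reads 5′ to 3′ along the gene, and capitals mark E2F, CHR and CCAAT matches on either strand. The windows lie at chr12:24708004-24708303 (plus strand), chr8:75109259-75109558 (plus), chr9:70421505-70421804 (minus), chr5:30073576-30073875 (minus), chr7:135716330-135716629 (minus) and chr13:51644982-51645281 (plus).
Rrm2: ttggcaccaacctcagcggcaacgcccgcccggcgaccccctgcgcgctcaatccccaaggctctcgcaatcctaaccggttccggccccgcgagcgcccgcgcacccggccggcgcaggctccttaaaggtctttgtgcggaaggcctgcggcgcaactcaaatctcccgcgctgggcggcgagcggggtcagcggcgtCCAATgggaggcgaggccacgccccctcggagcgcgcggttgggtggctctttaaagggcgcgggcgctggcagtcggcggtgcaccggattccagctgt
Mcm5: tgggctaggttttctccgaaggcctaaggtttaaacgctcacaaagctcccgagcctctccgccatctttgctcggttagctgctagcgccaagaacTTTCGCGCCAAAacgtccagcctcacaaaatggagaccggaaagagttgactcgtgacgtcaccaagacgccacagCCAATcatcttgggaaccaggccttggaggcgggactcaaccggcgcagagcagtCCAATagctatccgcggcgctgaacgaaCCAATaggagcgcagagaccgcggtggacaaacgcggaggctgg
Ccnb2: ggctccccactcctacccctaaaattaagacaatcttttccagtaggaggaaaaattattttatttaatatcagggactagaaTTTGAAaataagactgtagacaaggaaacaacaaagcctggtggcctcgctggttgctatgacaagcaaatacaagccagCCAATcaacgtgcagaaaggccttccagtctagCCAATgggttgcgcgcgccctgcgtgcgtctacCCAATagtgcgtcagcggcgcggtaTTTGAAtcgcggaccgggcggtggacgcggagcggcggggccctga
Tyms: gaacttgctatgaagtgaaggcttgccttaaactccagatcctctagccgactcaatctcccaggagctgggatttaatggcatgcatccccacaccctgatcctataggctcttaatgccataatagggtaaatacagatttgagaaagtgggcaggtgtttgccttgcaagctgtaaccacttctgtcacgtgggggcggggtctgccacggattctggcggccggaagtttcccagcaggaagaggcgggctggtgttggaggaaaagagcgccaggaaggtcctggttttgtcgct
Mki67: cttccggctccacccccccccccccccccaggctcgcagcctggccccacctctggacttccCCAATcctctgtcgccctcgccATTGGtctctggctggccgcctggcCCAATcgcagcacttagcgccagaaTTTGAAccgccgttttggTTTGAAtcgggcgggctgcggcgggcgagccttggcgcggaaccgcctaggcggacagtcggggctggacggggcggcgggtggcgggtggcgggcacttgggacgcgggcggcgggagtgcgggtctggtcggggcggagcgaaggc
Cks2: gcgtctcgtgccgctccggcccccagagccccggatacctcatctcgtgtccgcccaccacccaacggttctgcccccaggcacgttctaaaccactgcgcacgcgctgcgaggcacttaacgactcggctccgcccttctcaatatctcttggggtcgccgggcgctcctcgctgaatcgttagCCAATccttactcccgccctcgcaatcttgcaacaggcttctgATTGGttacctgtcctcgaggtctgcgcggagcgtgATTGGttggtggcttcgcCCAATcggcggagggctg
In Mcm5 the letters TTTCGCGC and, on the other strand, TTTGGCGC overlap in 1 run of capitals that begins at position -153, counted from the start base of the entry at 0. That base lies 60 bases before the GENCODE M21 model of Mcm5, which the window does not reach, while the entries of the other 5 genes start within 18 bases of a transcript start in that annotation. Ccnb2 holds TTTGAA at positions -167 and 4 with 3 CCAAT boxes between them, and Mki67 holds TTTGAA at -116 and -98 with 3 CCAAT boxes before them. Mki67, which rose, holds CHR and CCAAT letters as many of the mitotic genes that fell do, while Cks2 holds 4 CCAAT boxes without CHR letters and the window of Tyms holds none of the letters searched.

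Among the genes of origin licensing and of the helicase, all 8 that were tested fell, and 9 of the 10 did not overlap between the groups. Over all tested genes 31.3% fell, and 16.1% of all 16936 genes had non-overlapping groups in the lower direction. Cdc45 passed the filter only through its untreated level and had to differ. Mcm3, a subunit of the helicase and the most abundant gene here, was at 11.0, 9.71, 9.22, 9.40 and 11.4 FPKM in untreated samples 1 to 5 and at 5.67, 3.79, 5.78, 5.48 and 5.23 FPKM in PLG samples 1 to 5. PLG sample 2 was the lowest and no PLG sample reached an untreated one. On the log2 scale Mcm3 changed by -0.85 ± 0.10 (SE), with an adjusted p of 5.00e-06 in limma. Mcm5, another subunit, had 3.97, 6.20, 5.08, 4.26 and 5.68 FPKM in untreated and 1.63, 1.25, 1.86, 2.29 and 1.72 FPKM in PLG samples. The groups lay apart, with the highest PLG value in sample 4, and Mcm5 had the largest fall among the tested licensing genes on log2(FPKM + 1), where low genes are held back, although Cdc45 and Mcm2 kept a smaller share of their level (log2 change -1.13 ± 0.12, adjusted p = 2.58e-06).

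The other helicase subunits fell as well. Mcm2 went from 2.95 ± 0.262 to 0.926 ± 0.204 FPKM, or 31.4% of its untreated level (log2 change -1.04 ± 0.09, adjusted p = 3.76e-07), and Mcm6 from 7.88 ± 0.535 to 5.38 ± 0.787 FPKM, or 68.3% (log2 change -0.48 ± 0.09, adjusted p = 0.000376). The ratio of Mcm6 to Mcm2 in FPKM was 2.42 to 2.95 in the untreated and 4.66 to 8.17 in the PLG samples, without overlap. Among the subunits Mcm2 kept the smallest and Mcm6 the largest share of its level, so this ratio restates their changes and is not a separate result. Mcm4 and Mcm7 kept 57.2% and 49.7% of their untreated level, with log2 changes of -0.69 and -0.74. Cdt1, which loads the helicase together with Cdc6, fell from 8.34 ± 0.887 to 4.16 ± 0.334 FPKM (log2 change -0.85 ± 0.08, adjusted p = 5.80e-07), and Cdc6 was at 0.609 ± 0.146 and 0.257 ± 0.0643 FPKM (log2 change -0.35 ± 0.06, adjusted p = 0.00132, no filter). Cdc45, which turns the loaded ring into an active helicase, fell to 22.7% of its untreated level (log2 change -1.05 ± 0.12, adjusted p = 5.43e-06).

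Gins2, a subunit of the GINS complex that joins Cdc45 at the helicase, was the gene of this role that did not pass. It was at 1.33, 1.24, 0.915, 0.519 and 0.689 FPKM in untreated and at 0.477, 0.348, 0.833, 0.626 and 0.790 FPKM in PLG samples. The groups overlapped, with untreated samples 4 and 5 inside the range of the PLG samples (log2 change -0.25 ± 0.13, adjusted p = 0.176 without the filter, exact permutation p = 0.127). Of the exon bases of Gins2, 67.3% are shared with Gse1 on the opposite strand in GENCODE M21, and the strand setting of the counting is not given in the sources used here.

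The clamp Pcna, the most abundant of the 47 genes in untreated cells, held 34.0, 40.3, 33.9, 33.5 and 38.7 FPKM without and 23.4, 21.5, 30.1, 22.7 and 22.9 FPKM with PLG. PLG sample 3 stood above the other PLG samples and still below every untreated sample. Pcna had a log2 change of -0.57 ± 0.09 (SE), with an adjusted p of 6.27e-05, so that 66.8% of the level remained. Pola1, the catalytic subunit of the polymerase that starts each new strand, was at 1.37, 2.15, 1.61, 1.88 and 1.68 FPKM in untreated and at 0.465, 0.440, 0.537, 0.389 and 0.448 FPKM in PLG samples. These groups lay far apart, and the PLG values at 26.2% of the untreated level spanned a narrow range (log2 change -0.91 ± 0.09, adjusted p = 1.31e-06).

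Of the remaining replication enzymes none passed as lower in the filtered test, and Pole did in the fit without the filter. The clamp loader subunit Rfc3 was at 1.40 ± 0.137 and 1.24 ± 0.0997 FPKM and did not pass (log2 change -0.10 ± 0.08, adjusted p = 0.297). Its partner Rfc4 was at 1.70 ± 0.355 and 1.25 ± 0.546 FPKM (log2 change -0.28 ± 0.16, adjusted p = 0.135), with PLG sample 5 at 2.09 FPKM. Without that sample Rfc4 was called lower, with an adjusted p of 0.0235. Pole, the catalytic subunit of the leading-strand polymerase, was called lower there (log2 change -0.31 ± 0.08, adjusted p = 0.0142), although untreated sample 3 at 0.540 FPKM lay within the PLG range of 0.447 to 0.572 FPKM. The primase subunit Prim1 was at 0.744 ± 0.319 and 0.590 ± 0.150 FPKM and did not pass (log2 change -0.12 ± 0.13, adjusted p = 0.541).

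Fen1, which trims the flaps of lagging-strand fragments, was the lowest of the 47 genes in untreated cells. Its values were 0.117, 0.509, 0.528, 0.155 and 0.0100 FPKM in untreated and 0.261, 0.375, 0.120, 0.272 and 0.0120 FPKM in PLG samples, which is 1 to 46 reads per sample. Sample 5 was the lowest of both groups and the groups overlapped fully (log2 change -0.05 ± 0.13, adjusted p = 0.784 without the filter). In the annotation 84.2% of its exon bases are shared with Tmem258 and Gm10143 on the opposite strand.

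Nucleotide supply held both the largest fall of the S-phase genes and their only rise. Rrm2, the regulated subunit of ribonucleotide reductase, which makes deoxynucleotides, was at 7.31, 7.10, 5.01, 3.45 and 5.89 FPKM in untreated and at 0.787, 1.12, 0.487, 0.705 and 0.735 FPKM in PLG samples. The lowest untreated value, in sample 4, was above the highest PLG value, in sample 2. The log2 change of Rrm2 was -1.91 ± 0.16 (SE), with an adjusted p of 1.64e-07. The large subunit Rrm1 fell from 3.84 ± 0.520 to 1.57 ± 0.281 FPKM (log2 change -0.92 ± 0.10, adjusted p = 3.85e-06).

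Tyms, thymidylate synthase, which makes the thymidine nucleotide of DNA, went the other way. It was at 0.634, 0.415, 0.607, 0.889 and 0.419 FPKM in untreated and at 1.44, 1.17, 1.95, 1.29 and 1.62 FPKM in PLG samples, on 82 to 173 and 291 to 696 recovered reads. Every PLG sample was above every untreated one, of which sample 4 was the highest. On the log2 scale Tyms changed by 0.65 ± 0.11 (SE), with an adjusted p of 0.000214, and on the recovered reads the log2 change was 1.39 ± 0.25 (SE). No untreated sample reached 1 FPKM, so Tyms passed the filter only through its PLG level, and without the filter the adjusted p was 0.000639. Within a sample, the ratio of Tyms to Rrm2 in FPKM was 0.058 to 0.257 without PLG and 1.04 to 4.01 with it. That ratio restates the opposite changes of these genes. No exon base of Tyms, at chr5:30058202-30073617, is shared with another annotated gene, and the rise held under all 22 other settings tried for it, with adjusted p between 2.67e-05 and 0.00322.

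Both genes of chromatin copying fell, where 31.3% of all tested genes did. Chaf1a passed the filter only through its untreated level and had to differ. Uhrf1, which carries DNA methylation over to the new strand, was at 3.80, 3.88, 4.15, 3.58 and 4.69 FPKM in untreated and at 2.03, 2.50, 1.90, 2.43 and 1.33 FPKM in PLG samples. PLG samples 2 and 4 were the highest of their group and lay below all untreated samples (log2 change -0.74 ± 0.11, adjusted p = 6.86e-05). Chaf1a, the large subunit of the histone chaperone CAF-1 that follows the fork, was at 1.64, 1.20, 1.96, 1.14 and 1.61 FPKM in untreated and at 0.663, 0.602, 0.574, 0.739 and 0.647 FPKM in PLG samples. Its groups did not overlap either (log2 change -0.60 ± 0.10, adjusted p = 0.000179). In Chaf1a 52.5% of the exon bases are shared with Ubxn6 on the opposite strand.

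The commonly used proliferation markers of the mitotic list parted. Top2a, the topoisomerase that untangles sister chromosomes, was at 8.41, 6.84, 8.78, 7.48 and 9.42 FPKM in untreated and at 1.44, 0.975, 1.47, 1.28 and 1.41 FPKM in PLG samples. No value came near the other group, and 16.0% of the untreated level remained. Top2a had a log2 change of -1.99 ± 0.10 (SE), with an adjusted p of 5.96e-10. Mki67, which encodes Ki-67, a coat protein of mitotic chromosomes, was at 17.5, 13.9, 14.7, 13.3 and 16.0 FPKM in untreated and at 24.9, 26.8, 20.0, 24.1 and 25.1 FPKM in PLG samples. Here every PLG sample was above every untreated sample, with the closest values in untreated sample 1 and PLG sample 3. The log2 change of Mki67 was 0.65 ± 0.09 (SE), with an adjusted p of 1.66e-05.

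With PLG the means of Mki67 and Pcna were nearly equal, at 24.16 and 24.11 FPKM, the highest of the 47 genes. In PLG sample 3 Pcna was above Mki67, at 30.1 against 20.0 FPKM. Without PLG Pcna was the most abundant. Mki67 lies at chr7:135689784-135716361 and shares no exon base with another annotated gene. It gathered 4291 to 7475 reads in untreated and 7598 to 17864 reads in PLG samples. The ratio of Mki67 to Top2a in FPKM was 1.67 to 2.08 in untreated and 13.6 to 27.5 in PLG samples. This sets a gene that rose beside one that fell and is not a separate result. The rise held under all 23 other settings, with log2 changes of 0.54 to 0.71 and adjusted p between 8.99e-09 and 0.000162.

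**Figure D4:**
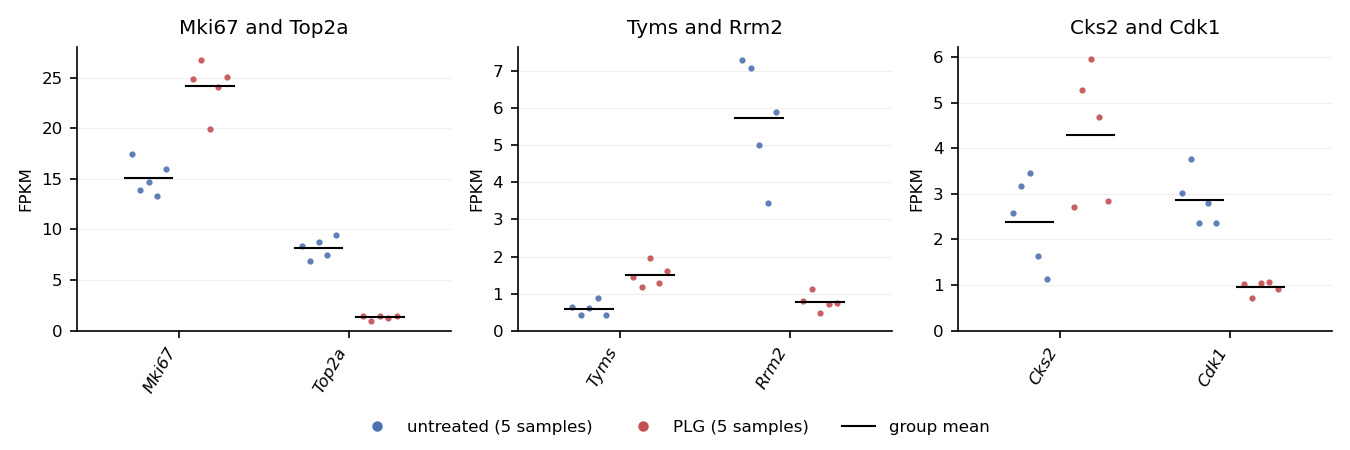
FPKM (linear axis from 0) of Mki67, Tyms and Cks2, each beside a gene of the same role, in the 5 untreated (blue) and 5 PLG (red) samples, with black lines at the group means. Mki67 and Tyms lie higher in every PLG sample while Top2a and Rrm2 lie lower, and Cks2 overlaps between the groups.

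Of the cyclins and their kinase, all 4 genes other than Cks2 fell, where 31.3% of all tested genes did. Ccna2 and Ccnb1 passed the filter only through their untreated level and had to differ. Ccnb2, cyclin B2, was at 6.57, 4.86, 5.37, 6.05 and 7.75 FPKM in untreated and at 1.48, 0.144, 0.778, 0.534 and 0.591 FPKM in PLG samples. The PLG values spread widely, with sample 1 highest and sample 2 lowest, and stayed below the untreated range. On the log2 scale Ccnb2 changed by -2.09 ± 0.18 (SE), with an adjusted p of 1.66e-07, the largest fall among the tested mitotic genes on this scale. Ccna2, cyclin A2, was left with 9.22% of its untreated level, from 3.83 ± 0.437 to 0.353 ± 0.131 FPKM (log2 change -1.84 ± 0.10, adjusted p = 1.47e-09). Ccnb1, cyclin B1, fell to 13.3% (log2 change -1.56 ± 0.13, adjusted p = 1.08e-07) and Cdk1, the kinase they activate, to 33.3% (log2 change -0.97 ± 0.11, adjusted p = 2.99e-06).

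Cks2, a small protein that binds CDK1, was at 2.58, 3.16, 3.45, 1.63 and 1.12 FPKM in untreated and at 2.71, 5.29, 5.96, 4.69 and 2.84 FPKM in PLG samples. The groups overlapped, since untreated samples 2 and 3 were above PLG samples 1 and 5. Cks2 was called higher (log2 change 0.65 ± 0.23, adjusted p = 0.0235), while the exact permutation test gave p = 0.0635. Its gene model of 692 bases is the shortest of the 47 and gathered 32 to 156 reads per sample. The call was lost under 8 of the 22 other settings tried, among them voom on the reads (adjusted p = 0.0730), no filter (0.0669) and leaving out untreated sample 4 (0.0588) or 5 (0.0614) or PLG sample 2 (0.0570), 3 (0.0625) or 4 (0.0504). The adjusted p ranged from 0.00361 to 0.0948 over all settings, the highest without the 3 samples lowest in repeat-like models. In FPKM Cks2 stood at 0.479 to 1.46 times Cdk1 in untreated and at 2.68 to 7.32 times in PLG samples. Since Cdk1 fell, this ratio does not add to the call of Cks2.

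All 5 mitotic and checkpoint kinases fell, each without overlap. In Bub1, Aurka, Aurkb and Plk1 no PLG sample reached 1 FPKM, so the filter alone made their groups differ. Among all tested genes 31.3% fell, and 16.1% of all genes of the table had non-overlapping groups in the lower direction. Bub1b, the checkpoint protein BubR1 and the most abundant of them, was at 5.10, 5.94, 4.78, 4.57 and 5.85 FPKM in untreated and at 2.75, 1.69, 2.81, 2.45 and 2.41 FPKM in PLG samples. PLG sample 2 was lowest, and 46.1% of the level remained (log2 change -0.87 ± 0.11, adjusted p = 7.82e-06). Plk1, the polo-like kinase of mitotic entry, was at 3.96, 5.64, 1.40, 2.35 and 4.57 FPKM in untreated and at 0.454, 0.112, 0.517, 0.176 and 0.508 FPKM in PLG samples. Its untreated samples spread more than those of the other kinases, with sample 3 lowest and still above all PLG samples. Plk1 had a log2 change of -1.68 ± 0.23 (SE), with an adjusted p of 2.68e-05, or 9.86% of the untreated level. Aurora kinases A and B, which act at the spindle poles and at the centromeres, fell to 27.0% and 19.9% (Aurka log2 change -1.03 ± 0.14, adjusted p = 1.97e-05, and Aurkb log2 change -1.42 ± 0.11, adjusted p = 1.01e-07), and the checkpoint kinase Bub1 to 19.3% (log2 change -1.16 ± 0.09, adjusted p = 6.06e-08).

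The kinetochore genes were low in both groups, and 1 of the 4, Cenpe, passed the filter, through its untreated level only. Cenpe, the motor that moves chromosomes to the spindle centre, was at 2.45, 2.98, 2.44, 2.34 and 2.71 FPKM in untreated and at 0.555, 0.350, 0.396, 0.414 and 0.453 FPKM in PLG samples. Both groups were tight and lay far apart. The log2 change of Cenpe was -1.32 ± 0.08 (SE), with an adjusted p of 1.01e-08. Ndc80, which grips the microtubule ends, was at 1.07, 0.850, 0.890, 0.944 and 0.877 FPKM in untreated and at 0.122, 0.333, 0.452, 0.266 and 0.222 FPKM in PLG samples. The groups did not overlap (log2 change -0.59 ± 0.07, adjusted p = 4.30e-05 without the filter). Its partner Nuf2 was left with 9.63% and Cenpf, a large protein of the outer kinetochore, with 7.83% of the untreated level, the lowest share of the 47 genes. Cenpf was counted with 436 to 755 reads in untreated and 38 to 89 reads in PLG samples (log2 change -0.94 ± 0.05, adjusted p = 7.77e-08 without the filter).

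All 7 genes of the spindle and of cytokinesis fell, where 31.3% of all tested genes did. In Birc5, Prc1, Anln and Ect2 no PLG sample reached 1 FPKM, so the filter alone made their groups differ. Tpx2, which activates Aurora A on the spindle, was at 5.67, 3.88, 5.49, 3.92 and 5.42 FPKM in untreated and at 1.50, 1.45, 1.47, 1.92 and 1.63 FPKM in PLG samples. Untreated samples 2 and 4 were lower than the rest of their group and above every PLG sample (log2 change -1.17 ± 0.11, adjusted p = 5.15e-07). Nusap1, a microtubule-bundling protein, was at 3.29, 3.08, 3.65, 2.75 and 3.70 FPKM in untreated and at 0.753, 0.472, 1.01, 0.459 and 0.686 FPKM in PLG samples. PLG sample 3 was the highest of its group, and no overlap occurred. On the log2 scale Nusap1 changed by -1.36 ± 0.11 (SE), with an adjusted p of 9.33e-08.

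Hmmr, a spindle and hyaluronan-binding protein, had the smallest fall of this role. Its values were 2.59, 1.77, 2.51, 2.77 and 3.12 FPKM in untreated and 0.908, 1.95, 1.33, 1.23 and 0.963 FPKM in PLG samples. Untreated sample 2 lay below PLG sample 2, so that the groups overlapped (log2 change -0.65 ± 0.13, adjusted p = 0.000917, exact permutation p = 0.0159). The scaffold of the cleavage furrow Anln fell to 11.3% of its untreated level (log2 change -1.32 ± 0.09, adjusted p = 2.77e-08) and the survivin gene Birc5, of the chromosomal passenger complex, to 16.1% (log2 change -1.04 ± 0.09, adjusted p = 2.21e-07). The midzone bundler Prc1 and the RhoA activator Ect2 fell to 20.1% and 19.5%, with log2 changes of -1.16 and -1.14.

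The anaphase-promoting complex was represented by its activator Cdc20 and its ubiquitin-conjugating enzyme Ube2c, and both fell, where 31.3% of all tested genes did. Ube2c passed the filter only through its untreated level and had to differ. Cdc20 was at 3.01, 4.09, 3.82, 2.39 and 4.01 FPKM in untreated and at 0.480, 0.513, 1.20, 0.608 and 0.484 FPKM in PLG samples. PLG sample 3 stood above the other PLG samples and below every untreated sample (log2 change -1.43 ± 0.14, adjusted p = 9.51e-07). Ube2c was at 2.61, 2.31, 1.94, 2.96 and 2.69 FPKM in untreated and at 0.517, 0.491, 0.203, 0.157 and 0.196 FPKM in PLG samples. Its groups lay far apart, with PLG samples 1 and 2 above the other 3 (log2 change -1.42 ± 0.11, adjusted p = 1.08e-07). Of the exon bases of Ube2c 22.8% are shared with Tnnc2 on the opposite strand.

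Summed over a list, the samples of a group differed less than the groups. The FPKM of the 22 S-phase genes added up to 100.5 to 119 in untreated and 52.9 to 67.2 in PLG samples, and Pcna alone made up much of it. For the 25 mitotic genes the sums were 77.6 to 95.7 and 42.7 to 44.6, where Mki67 was the largest part of each PLG sum. Its part was 20.0 of 43.2 FPKM in PLG sample 3 and 26.8 of 44.6 FPKM in PLG sample 2. The median mitotic gene was at 2.35 to 3.09 FPKM in an untreated and 0.457 to 0.589 FPKM in a PLG sample, and the median S-phase gene at 2.27 to 3.02 and 1.13 to 1.28 FPKM. Relative to their own group, untreated sample 4 and PLG sample 2 were the lowest in both lists, with median deviations of -0.105 and -0.126 in the S-phase and -0.15 and -0.074 in the mitotic genes on the log2(FPKM + 1) scale. The untreated level of a gene and its change on the reads had a Spearman's rho of -0.05 over the 47 genes, -0.35 over the 22 and 0.16 over the 25, given as descriptions across genes that share the same libraries.

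Other genes of the same processes, taken from lists drawn up for replication and mitosis, were set beside the 47. Of 45 tested other replication genes 21 fell, 7 rose and 17 did not pass, with a median log2 change of -0.13. The shares over all tested genes were 31.3% lower and 29.1% higher. The PCNA-binding protein Pclaf (log2 change -1.32 ± 0.12, adjusted p = 3.23e-07) and the kinase Cdc7, which activates the helicase (log2 change -1.20 ± 0.12, adjusted p = 1.20e-06), fell, while the GINS subunit Gins3 rose from 1.39 ± 0.302 to 4.82 ± 0.624 FPKM (log2 change 1.29 ± 0.11, adjusted p = 1.79e-07). Its complex partner Gins4 was at 8.30 ± 1.47 and 8.56 ± 0.670 FPKM and did not pass (log2 change 0.05 ± 0.10, adjusted p = 0.689). Of 49 other mitosis genes 39 fell, 6 rose and 4 did not pass, with a median of -0.77. In 18 of these 49 genes and in 2 of the 45 replication genes no PLG sample reached 1 FPKM, so these were tested only because of their untreated level and had to differ, and the counts describe the tested genes. The microtubule regulator Stmn1, the phosphatase Cdc25b and the kinesin Kif20a fell with log2 changes of -2.20, -2.17 and -1.60, and the histone variant H2az1 was at 47.3 ± 3.30 and 53.8 ± 9.05 FPKM and did not pass (log2 change 0.17 ± 0.10, adjusted p = 0.160).

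**Figure D5:**
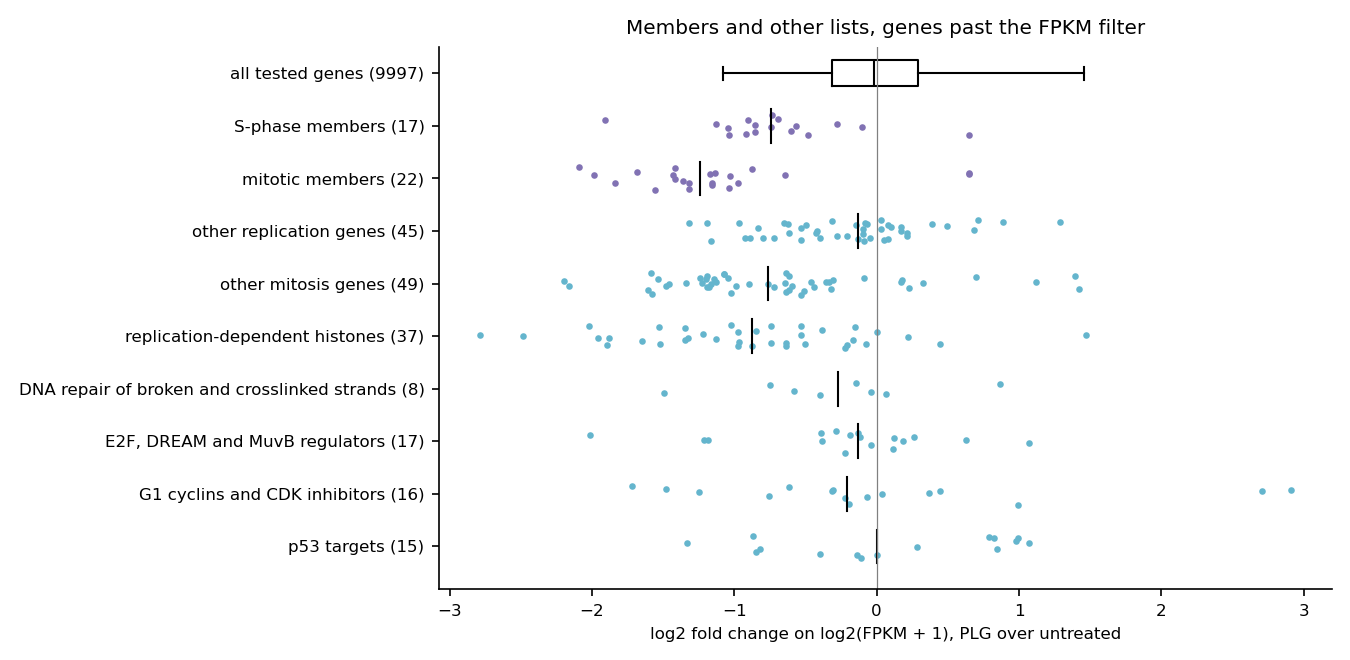
Log2 fold change on log2(FPKM + 1) of each tested gene, for the S-phase and mitotic genes (purple) and the other lists (blue), with black lines at the medians and, at the top, a box of the quartiles of all 9997 tested genes with whiskers at the 5th and 95th percentile. The other mitosis genes and the histones have medians of -0.77 and -0.88, and the other lists have medians between -0.27 and 0.00.

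Of 37 tested replication-dependent histone genes, whose copies are alike in sequence and may share reads, 23 fell, 2 rose and 12 did not pass, with a median of -0.88. H2bc15, H1f5 and H2bc13 fell with log2 changes of -2.79, -2.49 and -2.02, and H2bc4 was at 50.5 ± 7.20 and 43.4 ± 4.85 FPKM and did not pass (log2 change -0.21 ± 0.10, adjusted p = 0.0930). In the list of E2F, DREAM and MuvB regulators 7 of 17 fell and 3 rose, with a median of -0.13. In this list and in that of the histones, 1 gene each that fell passed the filter only through its untreated level. For comparison, 31.3% of all tested genes fell and 29.1% rose. The activator E2f2 went from 8.71 ± 0.420 to 1.41 ± 0.107 FPKM (log2 change -2.01 ± 0.07, adjusted p = 1.95e-11), and the mitotic activator Foxm1 and the repressor E2f8 also fell, by log2 changes of -1.21 and -1.19. E2f4, a repressor of resting cells, was at 17.9 ± 1.22 and 19.5 ± 1.37 FPKM and did not pass (log2 change 0.12 ± 0.06, adjusted p = 0.123).

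Regulators of the entry into the cycle moved both ways. Of 16 tested G1 cyclins and CDK inhibitors 5 rose and 6 fell, with a median of -0.21. Among those that fell 1 passed the filter only through its untreated level. For comparison with the counts of these lists, 29.1% of all tested genes rose and 31.3% fell. Cyclin D2, Ccnd2, rose from 7.65 ± 1.48 to 63.4 ± 3.56 FPKM (log2 change 2.91 ± 0.11, adjusted p = 5.08e-11), the CDK4 and CDK6 inhibitor Cdkn2b from 1.36 ± 0.722 to 13.8 ± 1.81 FPKM (log2 change 2.71 ± 0.19, adjusted p = 2.99e-08), and the inhibitor Cdkn1c fell (log2 change -1.72 ± 0.13, adjusted p = 8.10e-08). The MYC partner Max did not pass (log2 change -0.20 ± 0.09, adjusted p = 0.0785). Among 15 p53 targets 7 rose and 5 fell, with a median of 0.00, and the CDK inhibitor Cdkn1a rose from 61.8 ± 4.84 to 124 ± 3.87 FPKM (log2 change 0.99 ± 0.06, adjusted p = 2.38e-09). The kinase Plk2 rose and the RNA-binding protein Zmat3 fell, by log2 changes of 1.07 and -1.33, and the apoptosis gene Bax did not pass (-0.14). Of 8 tested genes that repair broken and crosslinked DNA 4 fell and 1 rose, with a median of -0.27, and 3 of those that fell passed the filter only through their untreated level. The checkpoint kinase Chek2 and the helicase Blm fell (-1.49 and -0.75), the end-resection factor Rbbp8 rose (0.86) and Xrcc3 did not pass (0.06). Some of the genes named as not passed in these lists were called when 1 sample was left out: H2az1 as higher without PLG sample 2 (adjusted p = 0.0105), E2f4 as higher without PLG sample 3 (0.0486), Max as lower without untreated sample 4 (0.0169) and H2bc4 as lower without untreated sample 3 (0.00640) or PLG sample 3 (0.0417).

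Markers of other cell types moved as well. The 9 macrophage markers summed to 5887 to 7405 FPKM in untreated and 2586 to 2800 FPKM in PLG samples, mostly Lyz2, with 6 lower, 2 higher and 1 not passed. In 1 of the 9 no untreated sample reached 1 FPKM, so it was tested only because of its PLG level and had to differ. Of 8 dendritic cell markers 7 were tested, of which 5 rose and 2 fell, and their sums were 310.5 to 354 and 693 to 768 FPKM. Flt3, 1 of those that rose, passed the filter only through its PLG level. Among all tested genes 31.3% fell and 29.1% rose. Of 6 markers of myeloid progenitors in the table, Kit was tested and fell (log2 change -0.37 ± 0.15, adjusted p = 0.0434), with groups that overlapped, and Cd34, Mpo, Prtn3, Ctsg and Ms4a3 stayed under 1 FPKM in all samples. All 7 B cell and all 7 T and NK cell markers stayed under 1 FPKM in all samples. The sums of the neutrophil markers were 6.86 to 11.0 and 15.1 to 18.4 FPKM, those of mast cells and basophils 2.99 to 5.10 and 5.06 to 6.84 FPKM. Those of erythroid cells and megakaryocytes were 42.3 to 58.5 and 89.4 to 106 FPKM, mostly Pf4, and those of stromal and endothelial cells 6.26 to 8.61 and 10.7 to 12.4 FPKM. The part of these cell types in the changes of the division genes was not tested.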

How the data were processed

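The authors deposited 1 table of FPKM values for 16936 protein-coding genes in 10 samples, with gene lengths and positions. Tools listed in the submitters' processing notes are STAR 2.7.3a, featureCounts 2.0.0, cutadapt 2.10, DESeq2 1.24.0 and FastQC 0.11.9, without their roles, and the genome is GRCm38.p6. Not given in the sources used here were the strand setting, the annotation release and the treatment of multi-mapping reads. Overlapping genes and close paralogs may therefore share reads. All 47 genes have the coordinates and exon lengths of GENCODE M21.

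FPKM times length fell on whole multiples of 1 step per sample, within 0.1 read for 100% of the low values, which gave the reads as the largest step that fits. At 2 times that step 47.95% to 50.76% were whole, as for a mix of odd and even numbers. Denominators were 31977234 to 70736975 reads, and 1 read on 1 kb was worth 0.0141 to 0.0313 FPKM.

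Groups followed the treatment label, 5 samples each. Values were analysed as log2(FPKM + 1), using limma 3.58.1 under R 4.3.3 with a treatment term and an intensity trend, over 9997 genes at 1 FPKM or more in at least 5 samples. Genes under the filter were taken from the same fit without it, and an exact permutation test was added. The fit was tested on simulated data. The genes and lists were chosen with earlier results of these data known. Within each role the genes given in every sample are the most abundant, the largest rise and fall, the smallest change and any gene against the majority, and from each other list up to 3 called genes with the largest change and the most abundant gene that did not pass. Alternatives were other pseudocounts, filters, scalings, moderation, a replicate block and each sample left out. Fits with voom on the reads, without 3 repeat-like gene models and without the 3 samples lowest in them were chosen after seeing the data. Figures were drawn with matplotlib 3.10.9.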

Additional observations from a re-analysis of the deposited data

Results flagged for a closer look

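In each gene and group the 5 values were searched for a sample far from the other 4, by the gap to the nearest value as a share of the range (Dixon's test). Of 94 groups of 5 values, 4 held such a sample, where chance flags about 1 in 20. Mcm3 in PLG sample 2 was at 3.79 FPKM, below the 5.23 to 5.78 FPKM of the other PLG samples. Pcna in PLG sample 3 was at 30.1 FPKM, above the others at 21.5 to 23.4 FPKM. Aurka in untreated sample 4 was at 1.43 FPKM, below the others at 2.44 to 2.72 FPKM. Cdc20 in PLG sample 3 was at 1.20 FPKM, above the others at 0.480 to 0.608 FPKM. In each of these genes the groups did not overlap with the sample included.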

How the results depend on the processing

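Over 23 other settings, 10 of which left out 1 sample, 1008 of 1017 results of the 47 genes kept their direction and their side of the threshold. The exceptions were 8 settings in which the call of Cks2 was lost and 1 in which Rfc4 was called, and 45 genes had none. Each of the 8 genes under the filter was run under 19 of the settings. Leaving out the 3 samples lowest in repeat-like models was not run for them. The S-phase count was 0 higher and 5 lower with a filter of 5 FPKM, which left 5 genes, and the mitotic count was 1 higher and 1 lower there, with a median of -0.67 over 2 genes. The mitotic count of higher genes was 1 with no filter, with voom and without the 3 samples lowest in repeat-like models, and 1 to 2 with 1 sample left out, as Cks2 was lost. The S-phase median log2 change was -0.65 with no filter, -0.97 with a pseudocount of 0.1, -0.38 with a pseudocount of 5 and -0.98 with voom, and -0.80 to -0.75 with 1 sample left out. The mitotic median was -1.16, -2.17, -0.47 and -2.37 under the same alternatives and -1.38 with quantile normalization, and -1.29 to -1.22 with 1 sample left out. The cause of the quantile shift and of the lost call of Cks2 was not tested. The scalings moved the median of all genes to between -0.07 and 0.02. Among the named genes outside the 47 that did not pass, 5 were called under 2 to 4 settings each, Max, Bax and H2bc4 as lower and H2az1 and E2f4 as higher. The CHR share of mitotic promoters was 36.4% in the 250 bases before the start, against 14.5% of all promoters. Same-numbered samples correlated at -0.121 to 0.099 in their deviations from the group mean. These values show no pairing by number, but cannot exclude one, since other differences between the samples could hide it. A replicate block gave 14 lower and 1 higher S-phase genes and 20 lower and 2 higher mitotic genes. Count models on the recovered reads were not run, since the deposited unit is FPKM. Of the 8 genes under the filter 5 were called without it, and Fen1, with 1 to 46 reads per sample, was not.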
